A study of Mus musculus with 12 samples.

Results

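The 6 wild-type libraries of a study of Ezh2 in mouse embryonic fibroblasts (MEFs) were compared as a pair of sets, the 3 wild types of the Ezh2b line against the 3 wild types of the Ezh2a line. They were chosen by their labels alone, and they are 6 of the 12 RNA libraries of the series. No library of either set carries an Ezh2 mutation, so the comparison shows how far cultures without a mutation differ from litter to litter, line to line or culture to culture. The other 6 libraries are 3 Ezh2a mutants and 3 Ezh2b mutants, and each wild-type set consists of littermates of its own mutant. All cultures were grown in high-glucose DMEM with fetal bovine serum, penicillin and streptomycin, and poly-A RNA was sequenced. No source used here gives the strain, embryo age, sex, passage or number of embryos per culture. Whether the 3 replicates of a set were separate embryos or cultures is not labelled, so a p-value measures only the spread between these libraries, which may be technical. Litter, line, culture and any difference in when or how a set was prepared cannot be told apart in this design.

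MEFs are obtained by mincing and culturing embryos, and a culture holds connective tissue cells from many parts of the body. Fibroblasts are known to keep a memory of where they came from, carried in part by their Hox genes, whose order along each chromosome cluster follows the order of body levels at which they are used. Other cells of the embryo, among them macrophages and mesothelial cells (the lining of the body cavities), can survive in early cultures, and their share is known to change with dissection and passage.

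Total counts were 31051443 to 39344643 in the Ezh2a wild types and 29444354 to 54070380 in the Ezh2b wild types. Of 35602 gene symbols, 15708 passed the filter on low counts and were tested. Levels are given as CPM, the counts of a gene scaled to an equal total per library, which do not account for gene length, so they are compared between libraries and never between genes. Every difference is the log2 level in the Ezh2b wild type minus that in the Ezh2a wild type, with its standard error (SE), and a gene is called where the adjusted p from edgeR's quasi-likelihood test is under 0.05. Ezh2b wild-type replicate 3 stood apart from replicates 1 and 2 of its set. The mean chi-square per gene between it and them was 11.3 and 12.4, against 3.88 between replicates 1 and 2 and 2.63 to 3.83 among the Ezh2a wild types. It was also the deepest library, and this measure, on raw counts, grows with depth. In genes differing by 2-fold or more its pairs had 30 and 36, against 34 for replicates 1 and 2. The median size of the log2 difference was 0.105 in its pairs and 0.0764 between replicates 1 and 2. Counts are therefore given with and without it.

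Between the wild-type sets 6642 of 15708 genes were called, which is 42.3% of the genes tested. Of these, 3212 were higher in the Ezh2b wild type (20.4%) and 3430 were lower (21.8%). Without Ezh2b wild-type replicate 3 the count was 6424. A difference of at least 2-fold was reached by 1320 called genes (8.4%), or 1340 without that library. These were uneven in direction, with 268 genes higher (1.71%) and 1052 lower (6.7%) in the Ezh2b wild type. All 3 libraries of one set lay beyond all 3 of the other for 7682 genes (48.9%). The shares of 42.3% called, 20.4% higher, 21.8% lower and 48.9% without overlap are the background for the counts and overlaps of list members below. In the same fit, 3118 genes (19.8%) were called between the Ezh2a mutant and its own wild type and 4105 (26.1%) between the Ezh2b mutant and its own wild type, with 391 (2.49%) and 783 (4.98%) at 2-fold or more. These contrasts share wild-type libraries with the comparison of the wild types, and their counts are set beside it only for size.

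The distance between single libraries had the same order. Among the 12284 genes whose log2 CPM averaged 1 or more, 7 to 16 differed by 2-fold or more between any pair of Ezh2a wild types, and 30 to 36 between any pair of Ezh2b wild types. Each of the 9 pairs that crossed the sets had 667 to 777 such genes, or 5.43% to 6.33%. The median size of the log2 difference was 0.0596 to 0.0646 and 0.0764 to 0.105 within the sets, and 0.148 to 0.173 between them. The ranges within and between the sets did not overlap.

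Ezh2, which encodes the enzyme of Polycomb repressive complex 2 (PRC2), the complex that places methyl groups on lysine 27 of histone H3, was at 30.5, 30.4 and 30.1 CPM in the Ezh2a wild types and 33.8, 35.8 and 35.3 CPM in the Ezh2b wild types. No Ezh2b library overlapped an Ezh2a library, and the log2 difference was 0.21 (SE 0.05, adjusted p = 0.0017). Ezh1, the paralog of Ezh2, was at 23.4, 23.7 and 26.8 CPM against 19.1, 18.9 and 17.5 CPM, a log2 difference of -0.42 (SE 0.06, adjusted p = 1.4e-05). Cdkn2a, which encodes cell cycle inhibitors that PRC2 is known to repress and that rise as fibroblasts age in culture, was at 37.2, 39.7 and 39.1 CPM against 59.7, 62.9 and 61.0 CPM. Its log2 difference was 0.66 (SE 0.04, adjusted p = 1.5e-10), again with no overlap. Of 13 PRC2 subunits and partners tested, 7 were higher, 1 lower and 5 did not pass. The median was 0.17, or 0.11 without Ezh2b wild-type replicate 3. Ezh1 was the lower member, and Epop (0.62), Aebp2 (0.36) and Rbbp7 (0.31) were among the higher ones.

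The genes with the largest differences in each direction were of unlike kinds. Among the lower genes were receptors of macrophages and other myeloid cells, the genes for the progesterone receptor and its fellow hormone target Greb1, and the collagenase Mmp13. Among the higher genes were a pair of muscle myosins, the transcription factor gene Gata3, a cartilage collagen and synaptic genes, while Brinp3, another gene named for the nervous system, was lower.

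**Figure D1:**
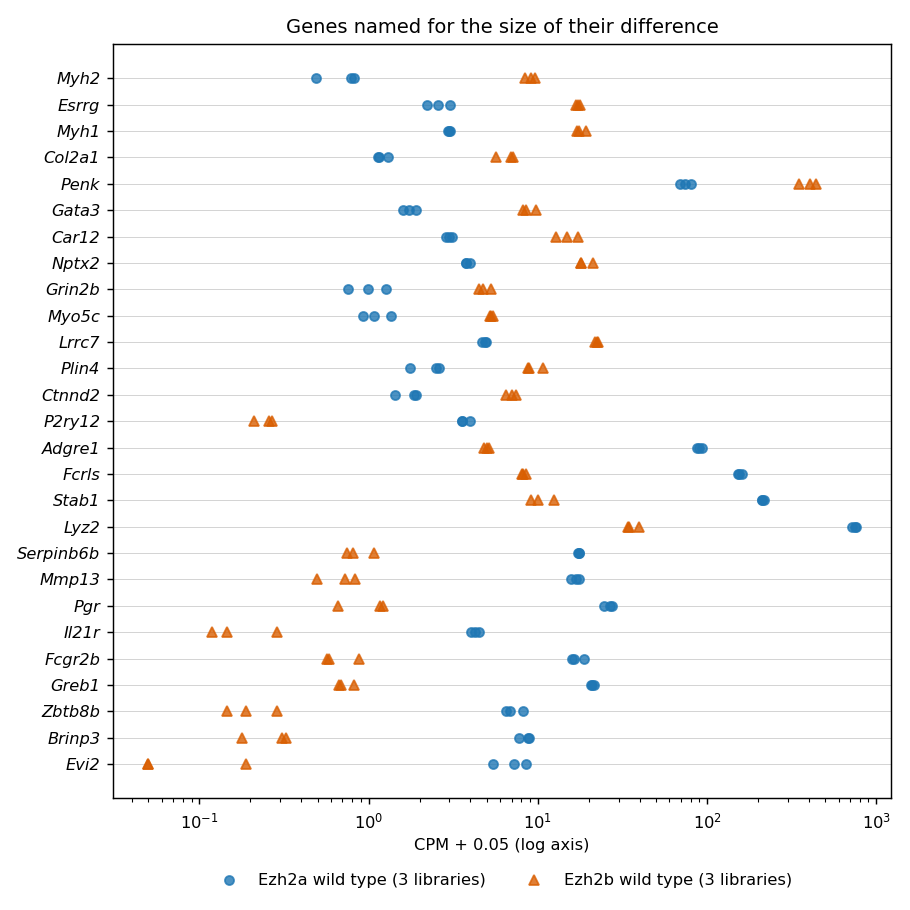
Levels of 27 of the genes with the largest called differences, 13 higher and 14 lower, in each of the 6 wild-type libraries, on a log axis of CPM with 0.05 added. Circles are the 3 Ezh2a and triangles the 3 Ezh2b wild types. In every row the circles and the triangles are apart, which the rule for naming these genes required. The lower genes have the larger differences in size, from -4.17 for P2ry12 to -7.51 for Evi2 against 2.02 for Ctnnd2 to 3.78 for Myh2 on the log2 scale. The value of Evi2 rests on few counts in the Ezh2b set (SE 1.24), and the next lowest is Brinp3 at -5.35.

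Lyz2, the lysozyme of macrophages and neutrophils (chromosome 10, 117277331 to 117282321 on GRCm38), was at 721, 752 and 755 CPM in the Ezh2a wild types and at 39.7, 34.6 and 33.9 CPM in the Ezh2b wild types. The log2 difference was -4.37 (SE 0.05, adjusted p = 1.1e-21), with all Ezh2b libraries far under all Ezh2a libraries. Adgre1, the gene of the macrophage antigen F4/80 (chromosome 17, 57358691 to 57483527), was at 90.0, 87.5 and 92.8 CPM against 4.79, 5.13 and 4.94 CPM, a log2 difference of -4.19 (SE 0.07). Stab1, a scavenger receptor of macrophages and sinusoidal endothelium, fell from 212, 216 and 210 CPM in the Ezh2a set to 12.4, 10.0 and 9.08 CPM in the Ezh2b set (-4.37, SE 0.08). The Fc receptor gene Fcgr2b (-4.80), the Fc receptor-like gene Fcrls (-4.25), the cytokine receptor gene Il21r (-4.73) and the purine receptor gene P2ry12 (-4.17) were lower as well. The genes of this paragraph were named by a rule that required no overlap of the sets. Fcrls and P2ry12 are known in mice as genes of microglia and tissue macrophages.

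All 20 macrophage and leukocyte markers were called lower in the Ezh2b wild type, where 21.8% of all genes were. Their log2 differences ran from -4.37 to -3.25 with a median of -3.76, against a median of 0.00 over all genes tested. Without Ezh2b wild-type replicate 3 all 20 were lower as well, with a median of -3.69. Together they held 0.190% to 0.196% of the counts of an Ezh2a wild-type library and 0.0122% to 0.0132% of an Ezh2b wild-type library. Spi1, the gene of the myeloid transcription factor PU.1, was at 14.2, 14.4 and 13.8 CPM against 0.578, 0.792 and 1.15 CPM (-3.98, SE 0.18). The complement genes C1qa (-3.93), C1qb (-3.86) and C1qc (-3.91) differed almost equally, from levels of 104 to 115 CPM down to 6.64 to 8.71 CPM. None of the 20 was at 0 in the Ezh2b wild types. In bulk RNA fewer cells of a type and less RNA per cell cannot be told apart.

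C1qc is shown because it was the macrophage marker whose promoter held the PU.1-type letters GAGGAAGT. The run below is the 250 bases before its start, chr4:136892915-136893164 on the minus strand of GRCm38.p6, from RefSeq, written 5′ to 3′ with the match in capitals, which lies on the opposite strand and so reads ACTTCCTC.
C1qc: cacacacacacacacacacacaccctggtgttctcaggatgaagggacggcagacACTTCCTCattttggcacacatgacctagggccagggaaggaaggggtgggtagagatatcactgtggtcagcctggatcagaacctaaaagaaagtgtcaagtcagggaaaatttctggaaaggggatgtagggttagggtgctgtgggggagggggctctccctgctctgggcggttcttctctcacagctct
The letters were searched on both strands in the 250 bases before each RefSeq start. They were in 1 of 16 such windows of the macrophage markers (14 of the 20 genes had a window) and in 2.44% of 32851 windows of all genes. A match is a description of letters and not of a bound site.

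Chemokines and inflammatory cytokines were mostly lower, with 14 of 25 tested genes lower, 6 higher and 5 not called, and a median of -0.40. Tnf was at 3.42, 3.62 and 3.08 CPM against 0.257, 0.172 and 0.201 CPM (-3.99, SE 0.21). Cxcl16 (-3.07) and Ccl9 (-2.94), both known as products of myeloid cells, were lower in every library. Ccl8 was at 0.332, 0.290 and 0.249 CPM in the Ezh2a wild types and at 0 in all Ezh2b wild types. Of 16 major histocompatibility genes 8 were lower and none higher (50%, where 42.3% of all genes tested were called and 21.8% were lower). H2-T23 was at -1.13 and H2-DMb1 at -1.02. The macrophage markers moved with these lists, and their part in the differences was not tested.

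Of 35 interferon-stimulated genes, induced by antiviral signalling, 19 were lower (54.3%, where 21.8% of all genes were) and none was called higher. Their median was -0.45. Their summed share of counts varied within a set, from 0.110% to 0.160% among the Ezh2a and from 0.0950% to 0.121% among the Ezh2b wild types, so that the sums of the sets overlapped. Zbp1, a sensor of nucleic acids, was at 4.95, 7.10 and 8.78 CPM against 3.37, 1.34 and 1.17 CPM (-1.87, SE 0.34). Oas3, which makes an activator of RNase L, was at 2.68, 2.71 and 3.14 CPM against 0.996, 0.620 and 0.348 CPM (-2.20, SE 0.34). Neither gene had overlapping sets. The count of lower members rested partly on single libraries, since it was 11 without Ezh2a wild-type replicate 3 and 13 without Ezh2b wild-type replicate 3.

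Mesothelial genes formed a further block of large differences. Of 12 epithelial and mesothelial markers tested, 11 were lower in the Ezh2b wild type and 1, Krt19, was higher, with a median of -3.33. The count of lower members was 10 without Ezh2b wild-type replicate 3. Msln, the gene of the mesothelial surface protein mesothelin, was at 42.2, 40.2 and 41.8 CPM against 5.82, 7.44 and 7.28 CPM (-2.59, SE 0.07). Upk3b, another mesothelial surface gene, was at 14.4, 13.1 and 15.3 CPM against 1.45, 1.27 and 1.37 CPM (-3.39, SE 0.11). Lrrn4 (-3.82), Muc16 (-3.46), Upk1b (-3.43) and Wt1 (-3.70), all known from mesothelium, lay in the same range, as did the keratin Krt8 (-3.85). The Ezh2a libraries were the high ones for all of these and the sets did not overlap. The keratin Krt19 went the other way, at 11.6, 12.5 and 12.0 CPM against 24.1, 27.9 and 21.8 CPM (1.03, SE 0.08). Aldh1a2, the retinoic acid synthesis enzyme that is also used by mesothelium, was at 11.7, 12.0 and 10.8 CPM against 1.25, 1.03 and 1.43 CPM (-3.18, SE 0.12), and the intermediate filament gene Des, which belongs to the skeletal muscle list, at 109, 112 and 105 CPM against 15.6, 14.7 and 13.8 CPM (-2.90, SE 0.05). The summed share of the epithelial and mesothelial list was 0.0118% to 0.0125% in the Ezh2a and 0.00368% to 0.00431% in the Ezh2b wild types.

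Markers of other cells were scarce or mixed. Of 14 endothelial markers 7 were tested, 3 were higher and 2 lower, and 4 of the 14 were at 0 in all 6 libraries. A single endothelial marker was lower with halved counts or with the 6 wild-type libraries alone. The differences of the tested markers ran from -6.90 to 1.21. Together the endothelial markers held 0.00565% to 0.00606% of the counts in the Ezh2a wild types and 0.00688% to 0.00775% in the Ezh2b wild types. Cdh5, the endothelial cadherin gene, had 12, 17 and 14 counts in the Ezh2a wild types and 0 in each Ezh2b wild type. Against an assumed floor of 3 counts over the 3 libraries it was 16.0-fold higher in the Ezh2a set. Both mates of a pair may have been counted, so folds against this floor are not lower bounds. Of 20 skeletal muscle genes only 7 passed the filter on low counts, and the myogenic factors Myod1 and Myog were not among them. Of these 7, 3 were higher and 2 lower, with 1 lower when Ezh2a wild-type replicate 2 or 3 or Ezh2b wild-type replicate 2 or 3 was left out. The summed share of the list was 0.0122% to 0.0131% in the Ezh2a and 0.00511% to 0.00591% in the Ezh2b wild types. Des, described above, was its lowest member and made up most of the share in the Ezh2a wild types, so the sum follows Des. The median difference of the 7 was 0.70, or 0.32 without Ezh2b wild-type replicate 3 and 0.16 without Ezh2a wild-type replicate 3. Myh2 and Myh1, neighbouring genes of fast muscle myosins on chromosome 11, were higher. Myh2 was at 0.740, 0.775 and 0.436 CPM against 9.64, 9.12 and 8.33 CPM (3.78, SE 0.20), and Myh1 at 2.96, 2.90 and 2.93 CPM against 19.3, 17.0 and 17.4 CPM (2.61, SE 0.11). The myosin genes are near copies of each other, so reads may be split between them. Among 14 tested neural and glial genes 2 were higher and 4 lower, with Stmn2 at 1.95 and Sox10 at -1.32. That is 42.9% called, near the 42.3% of all genes tested.

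All 16 fibroblast markers were expressed in all libraries, which fits the label of the cells, and 15 of them differed. Of these 11 were lower and 4 higher in the Ezh2b wild type. The median of the 16 was -0.33, or -0.285 without Ezh2b wild-type replicate 3. Together the 16 held 7.17% to 7.31% of the counts in the Ezh2a wild types and 6.33% to 6.80% in the Ezh2b wild types. Decorin, Dcn, a small proteoglycan that binds collagen fibrils, was at 166, 163 and 179 CPM against 57.2, 52.2 and 59.95 CPM (-1.58, SE 0.06). Lumican (Lum, -1.46), dermatopontin (Dpt, -1.45) and the surface protease Fap (-1.43) were lower to a like degree. The receptor gene Pdgfra was at 245, 250 and 255 CPM against 150, 135 and 145 CPM (-0.80, SE 0.05). The sets did not overlap for any of these genes.

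**Figure D2:**
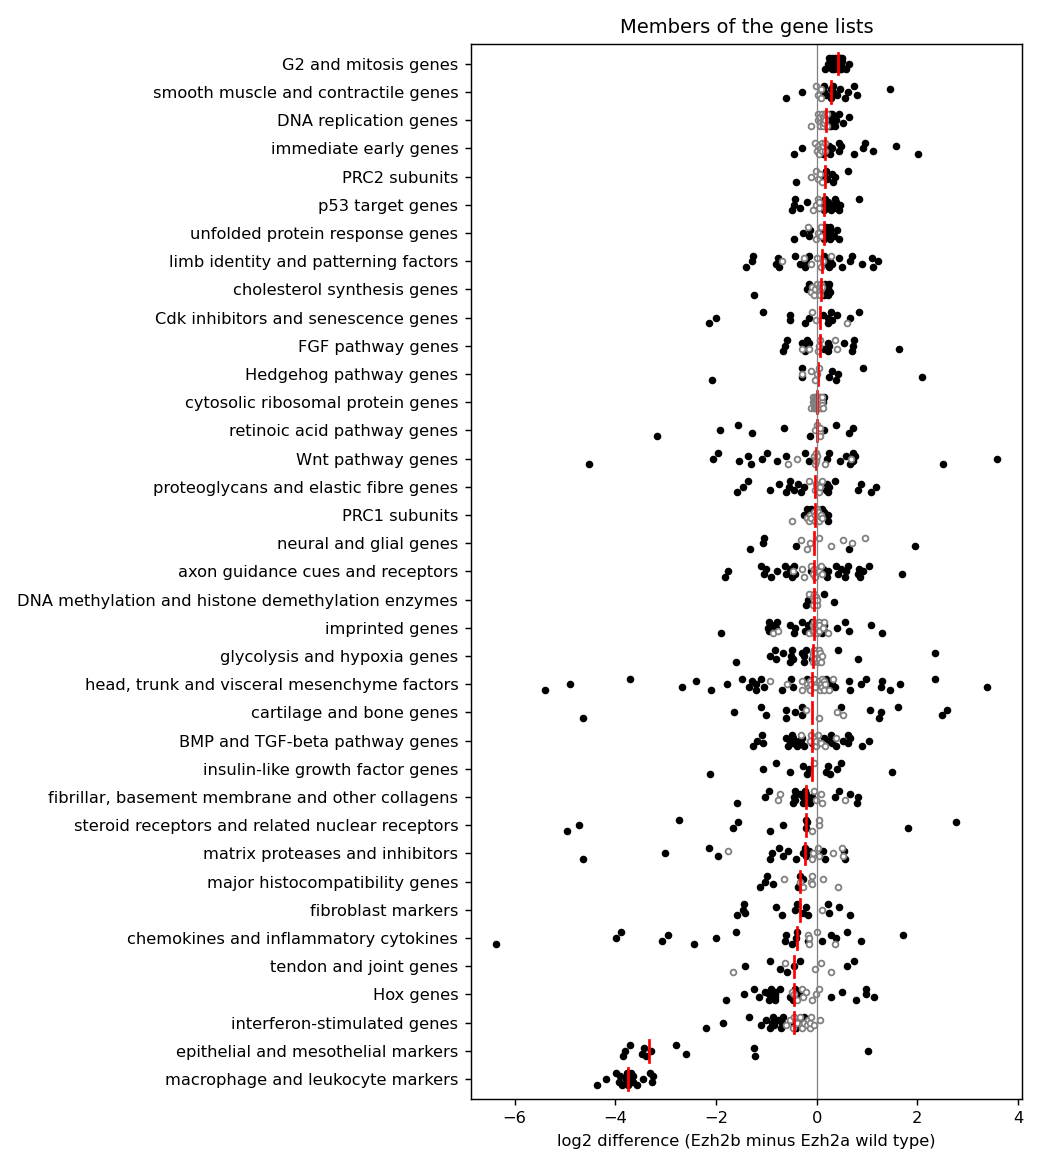
Log2 differences of the tested members of each list with at least 12 tested genes. Filled points were called, open points were not, and the red bar is the list's median. The macrophage and the epithelial and mesothelial lists lie far to the left, with medians of -3.76 and -3.33, while the G2 and mitosis genes lie in a narrow band to the right of 0.

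Collagens and matrix proteases were more often lower than higher, and proteoglycans went both ways. Of 27 collagens 15 were lower and 5 higher (median -0.21), of 27 proteoglycan and elastic fibre genes 12 were lower and 9 higher (median -0.03, or -0.07 without Ezh2b wild-type replicate 3), and of 26 proteases and inhibitors 14 were lower and 4 higher (median -0.22). Col14a1, a collagen that decorates fibrils, was at 76.7, 79.3 and 78.4 CPM against 26.6, 25.8 and 26.2 CPM (-1.58, SE 0.06). Col7a1 (0.83), the anchoring fibril collagen, and Col8a1 (0.66) were higher. Mmp13, an interstitial collagenase, was at 15.6, 16.8 and 17.6 CPM against 0.675, 0.448 and 0.787 CPM (-4.64, SE 0.15). The stromelysin gene Mmp3 (-2.13), the gelatinase gene Mmp9 (-1.97) and Adamts15 (-3.01) were lower as well. Thbs2, a thrombospondin of connective tissue, was a lower member of the tendon and joint list, at 2300, 2312 and 2279 CPM against 884, 871 and 815 CPM (-1.42, SE 0.04). Of the 13 tested members of that list 6 were lower and 2 higher.

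Contractile genes leaned to the Ezh2b wild type. Of 20 smooth muscle and contractile genes 14 were higher and 2 lower, with a median of 0.28. Cnn1, calponin of smooth muscle, was at 111, 99.3 and 103 CPM against 175, 188 and 162 CPM (0.75, SE 0.06). Rgs5 (1.45), known from pericytes, and Tpm1 (0.56), a tropomyosin, were also higher, and Mylk (-0.61), the myosin light chain kinase gene, was lower. Of 20 cartilage and bone genes 7 were higher and 9 lower. Col2a1, the main collagen of cartilage, was at 1.10, 1.26 and 1.09 CPM against 6.94, 7.13 and 5.58 CPM (2.48, SE 0.16), and the collagen of hypertrophic cartilage, Col10a1, at 15.4, 13.3 and 14.5 CPM against 45.2, 42.9 and 45.1 CPM (1.62, SE 0.07). The cartilage proteoglycan gene Acan (-1.64) was lower. Of 11 adipocyte genes 3 were higher, led by the lipid droplet gene Plin4 (2.06), and 6 lower, led by the fatty acid transporter gene Cd36 (-2.77), which macrophages also express. The part of the macrophage markers in that difference was not tested.

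Many Hox genes differed between the sets. Of 34 tested Hox genes 6 were higher in the Ezh2b wild type and 19 lower, with a median of -0.44, and without Ezh2b wild-type replicate 3 the counts were 6 and 22. The number of the paralog group rises from the head end to the tail end or limb tip. Of 25 genes of groups 1 to 9, 18 were lower and none higher. Of 9 genes of groups 10 to 13, 6 were higher and 1 lower. In HoxA only 2 of 8 genes of groups 1 to 9 were called. This division of the list was made after its values were seen, and it was not tested.

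Hoxd13, used at the tips of the limbs, was at 56.1, 57.9 and 54.0 CPM against 118, 116 and 135 CPM (1.13, SE 0.05). Its neighbours on the cluster followed in order, with Hoxd12 at 0.97, Hoxd11 at 0.78 and Hoxd10 at 0.51, then Hoxd9 at -0.41, Hoxd8 at -0.73, Hoxd4 at -1.44 and Hoxd3 at -1.80. Hoxd3 itself was at 3.78, 3.26 and 3.58 CPM against 0.771, 1.10 and 1.13 CPM. At both ends of the cluster the sets lay apart. In HoxA, Hoxa13 (0.97) and Hoxa11 (0.29) were higher. The HoxB and HoxC genes tested were lower where they were called, with Hoxb5 at -1.25, Hoxc5 at -1.14 and Hoxb4 at -1.02.

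**Figure D3:**
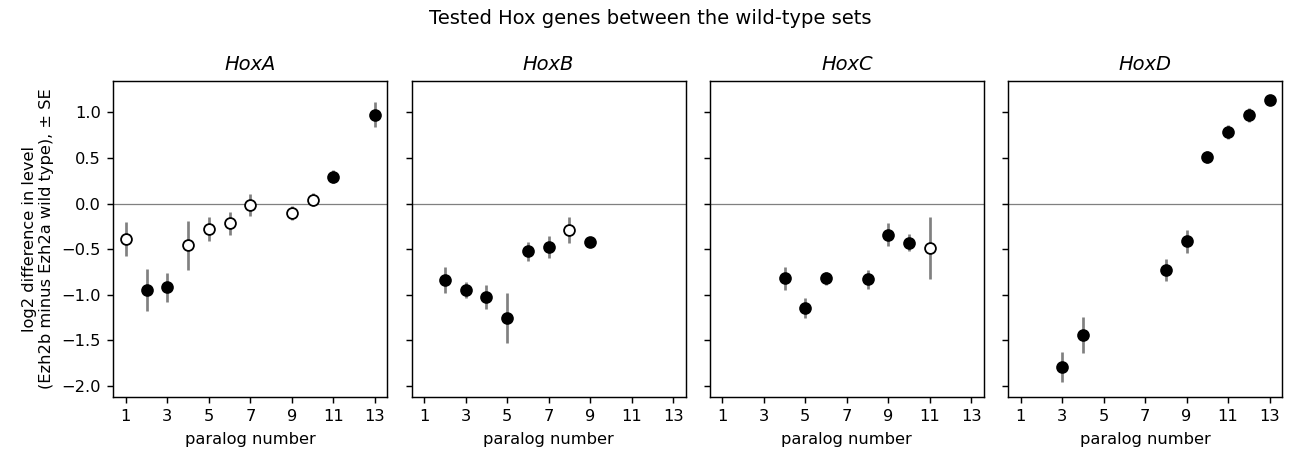
Log2 difference with its standard error for each tested Hox gene, by cluster and paralog number. Filled points were called and open points were not. The HoxD genes climb from -1.80 at Hoxd3 to 1.13 at Hoxd13, and no called HoxB or HoxC gene is above 0.

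The limb factors were divided. Of 32 tested, 14 were higher and 11 lower, with a median of 0.10. Tbx5, the factor of the forelimb, was at 8.93, 9.13 and 9.21 CPM against 9.03, 9.47 and 9.10 CPM, with overlapping sets and a difference of 0.02 (SE 0.10, adjusted p = 0.92). Tbx4, a factor of the hindlimb, was at 36.6, 33.1 and 34.4 CPM against 51.1, 49.9 and 46.5 CPM (0.50, SE 0.06), and Pitx1, which acts with it, differed by 0.30 (SE 0.05). Lhx9 (1.10), Msx1 (1.12) and Tfap2b (1.22), factors of early limb and face mesenchyme, were higher in all Ezh2b libraries. Emx2 (-1.27) and Dlx5 (-1.28) were lower.

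Among 54 tested factors of head, trunk and visceral mesenchyme 15 were higher and 18 lower, with a median of -0.08, or -0.20 without Ezh2b wild-type replicate 3. Gata4, a factor of heart and visceral mesoderm, was at 1.58, 1.87 and 2.37 CPM against 0, 0.138 and 0.0549 CPM, and Wt1, a factor of mesothelium and the urogenital ridge, at 3.88, 3.91 and 3.52 CPM against 0.257, 0.275 and 0.311 CPM. Pou3f3, known from kidney and brain, was lower by -2.67 (SE 0.19). In the other direction Gata3, a factor of several embryonic tissues, was at 1.86, 1.55 and 1.68 CPM against 8.52, 9.74 and 8.14 CPM (2.36, SE 0.14). The sets did not overlap for any of these 4 genes. For Gata3 that was part of the rule that named it.

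Mitosis genes were higher in the Ezh2b wild type by small amounts. All 32 G2 and mitosis genes were called higher, where 20.4% of all genes were, with differences of 0.16 to 0.64 and a median of 0.43, and all 32 were higher without Ezh2b wild-type replicate 3. Cdc20, an activator of the anaphase-promoting complex, was at 47.8, 49.2 and 48.7 CPM against 72.9, 74.4 and 72.1 CPM (0.59, SE 0.04). Ube2c, a ubiquitin carrier of the same complex, was at 29.0, 28.2 and 30.0 CPM against 39.6, 42.9 and 41.8 CPM (0.51, SE 0.05). Ect2, an exchange factor for the division furrow, was at 37.7, 35.5 and 37.3 CPM against 47.9, 52.9 and 55.2 CPM (0.50, SE 0.06). Anln (0.64), Aurka (0.50) and Plk1 (0.49) were close to these. Within each set the 3 libraries lay near each other. The sets did not overlap for any of the 32 genes, where 48.9% of all genes tested had no overlap. Of 40 DNA replication genes 24 were higher, led by Orc1 (0.64) and Rrm2 (0.52), none was called lower and 16 did not pass. Their differences went down to -0.11 with a median of 0.19, and 1 was called lower without Ezh2b wild-type replicate 1.

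Cdc20, Ube2c and Ect2 are the list members with the largest differences among those whose promoter held TTTGAA, the letters of the cell cycle homology region (CHR) through which many mitosis genes are known to be timed. The runs are the 250 bases before the start on GRCm38.p6, from RefSeq, 5′ to 3′, with the match in capitals. They are chr4:118437344-118437593 on the minus strand for Cdc20, chr2:164769679-164769928 on the plus strand for Ube2c, where the match is on the opposite strand and reads TTCAAA, and chr3:27153855-27154104 on the minus strand for Ect2.
Cdc20: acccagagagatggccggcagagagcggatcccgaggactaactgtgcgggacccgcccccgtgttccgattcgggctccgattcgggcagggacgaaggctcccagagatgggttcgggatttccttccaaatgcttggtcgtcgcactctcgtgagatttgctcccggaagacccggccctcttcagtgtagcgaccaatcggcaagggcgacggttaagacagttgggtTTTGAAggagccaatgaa
Ube2c: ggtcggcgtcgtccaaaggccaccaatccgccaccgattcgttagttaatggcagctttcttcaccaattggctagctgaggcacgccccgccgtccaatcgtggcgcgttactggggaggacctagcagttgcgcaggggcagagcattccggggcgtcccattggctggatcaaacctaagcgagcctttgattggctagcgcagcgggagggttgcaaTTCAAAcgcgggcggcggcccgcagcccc
Ect2: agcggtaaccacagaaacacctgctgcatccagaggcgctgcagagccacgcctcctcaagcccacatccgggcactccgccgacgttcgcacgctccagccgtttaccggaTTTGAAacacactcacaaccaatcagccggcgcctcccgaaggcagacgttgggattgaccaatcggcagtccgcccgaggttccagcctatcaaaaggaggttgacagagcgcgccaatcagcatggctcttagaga
The match began 18 bases before the start in Cdc20, 29 in Ube2c and 138 in the Ect2 window shown. From another RefSeq start of Ect2 the same match was 114 bases away. Both strands were searched, and none of the windows shown here held the PU.1-type letters. The CHR letters were in 11 of 30 windows of the list (28 of 32 genes had a window), which is 36.7%, in 16% of 32851 windows of all genes and in 11.2% of the 15669 windows of the genes tested. A window without them says only that the letters are not in these 250 bases.

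Of 18 Cdk inhibitors and senescence genes 8 were higher and 7 lower. Of 23 p53 targets 13 were higher and 5 lower, with a median of 0.15, and Perp (0.83) led them. Of 26 immediate early genes, which answer growth factors within minutes, 14 were higher and 2 lower. Arc was at 3.73, 3.97 and 3.73 CPM against 14.6, 17.8 and 13.7 CPM (2.01, SE 0.13), and Fosl1 (1.57) and Egr3 (1.12) were higher as well. Of 30 glycolysis and hypoxia genes 3 were higher and 14 lower (56.7% called, where 42.3% of all genes tested were). Without Ezh2b wild-type replicate 3, 9 were higher. Car12, a carbonic anhydrase, stood out at 2.83, 2.94 and 3.08 CPM against 12.8, 17.4 and 14.9 CPM (2.35, SE 0.13), while the aldolase gene Aldoc (-1.59) was lower.

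Of 24 cholesterol synthesis genes 10 were higher by at most 0.27 and 3 lower (54.2% called, where 42.3% of all genes tested were). Of 21 unfolded protein response genes 12 were higher and 4 lower. Cytosolic ribosomal protein genes differed little, with 3 of 48 called higher, none lower (6.25% called, where 42.3% of all genes were) and all 48 between -0.11 and 0.14. Without Ezh2b wild-type replicate 3, 5 were called higher and 4 lower, and without replicate 2 of that set 1 was lower.

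Signalling genes went both ways in each pathway. The share called was 68.8% of the Wnt, 73% of the BMP and TGF-beta, 70.8% of the FGF and 64.3% of the Hedgehog genes. Over all genes tested it was 42.3%. Of 32 Wnt pathway genes 10 were higher and 12 lower. The ligand gene Wnt10b was at 0.638, 0.613 and 0.529 CPM against 3.12, 3.82 and 3.35 CPM (2.52, SE 0.20). The secreted antagonist gene Frzb was at 10.2, 10.4 and 11.9 CPM against 2.60, 2.96 and 2.34 CPM (-2.05, SE 0.14), and its relatives Sfrp4 (-1.97) and Sfrp2 (-1.55) were lower too. Of 37 BMP and TGF-beta genes 11 were higher and 16 lower, with the ligand genes Gdf10 (-1.27) and Gdf6 (-1.09) and the target Id2 (-1.19) lowest. Of 24 FGF genes 9 were higher and 8 lower, and the ligand gene Fgf5 was at 2.48, 2.39 and 2.43 CPM against 8.0, 6.47 and 8.11 CPM (1.63, SE 0.13). Of 14 Hedgehog genes 6 were higher, among them the receptor and target Ptch1 (0.42) and the forkhead target Foxl1 (2.09), and 3 lower.

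Of 14 insulin-like growth factor genes 6 were higher and 7 lower. Igf1, which macrophages and fibroblasts both make, was at 120, 114 and 130 CPM against 29.0, 24.5 and 29.3 CPM (-2.13, SE 0.08). The binding protein gene Igfbp2 was at 38.1, 34.5 and 37.7 CPM against 106, 100 and 107 CPM (1.5, SE 0.06). Of 15 retinoic acid genes 4 were higher and 6 lower, and besides Aldh1a2 the lower ones included the degrading enzyme gene Cyp26b1 (-1.29). Without Ezh2a wild-type replicate 3 only 2 were higher. Of 39 axon guidance genes 15 were higher, with Sema3d at 1.69, and 14 lower, with Plxna4 at -1.82. The share called was 92.9%, 66.7% and 74.4% in these lists in turn, where 42.3% of all genes tested were.

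Hormone genes held some of the widest gaps. Pgr, the progesterone receptor gene (chromosome 9, 8899833 to 8968611), was at 26.7, 27.3 and 24.6 CPM in the Ezh2a wild types and 0.611, 1.17 and 1.12 CPM in the Ezh2b wild types (-4.73, SE 0.16). Esr1, an oestrogen receptor gene, was at 12.5, 13 and 11.7 CPM against 2.25, 1.41 and 1.88 CPM (-2.74, SE 0.13), and Greb1, a target of that receptor, at 21.4, 20.6 and 20.9 CPM against 0.771, 0.620 and 0.641 CPM (-4.96, SE 0.15). The orphan receptor gene Esrrg was at 2.17, 2.97 and 2.52 CPM against 17.3, 16.8 and 17.6 CPM (2.77, SE 0.12). Of 15 tested genes in the list of steroid and related receptors, which also holds Greb1, 10 were lower and 2 higher. Only 1 was higher without Ezh2a wild-type replicate 2 or Ezh2b wild-type replicate 3. Penk, which encodes the enkephalin precursor (chromosome 4, 4133531 to 4138819), was at 73.8, 69.4 and 80.2 CPM against 441, 349 and 409 CPM (2.42, SE 0.07). The sets did not overlap for any of these 5 genes. For all but Esr1 that was part of the rule that named them. Penk was the highest member of the list of neuropeptides and hormones, of whose 20 genes 8 were tested. Of these 2 were higher and 2 lower (50% called, where 42.3% of all genes tested were), and the lowest was at -3.49. With halved counts or the 6 wild-type libraries alone 1 was lower.

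Among the remaining lists, 4 of 22 PRC1 subunits were higher and 4 lower, with 14 not called, and Bmi1 differed by 0.22. These counts rested on single libraries. Only 2 were higher without Ezh2a wild-type replicate 2 or 3 or Ezh2b wild-type replicate 1 or 2. The lower members were 1, 2 and 1 without Ezh2a wild-type replicates 1, 2 and 3 in turn, 0 without Ezh2b wild-type replicate 2 and 1 without replicate 3. Of 14 DNA methylation and histone demethylation enzymes 2 were higher and 3 lower. The share called was 36.4% of the PRC1 subunits and 35.7% of these enzymes, both under the 42.3% of all genes tested. Of 40 imprinted genes 7 were higher and 15 lower (55% called), with Dlk1 at 1.29 and Peg10 at 1.07 against Ddc at -1.91. Over all genes tested 20.4% were higher and 21.8% lower. Without replicate 1 of either set 4 imprinted genes were higher. Igf2 was at 1388, 1375 and 1391 CPM against 1840.5, 1735 and 1891 CPM (0.40, SE 0.04). Y-linked genes were expressed in all 6 libraries, with Eif2s3y (-0.22), Uty (-0.20) and Kdm5d (-0.18) lower and Ddx3y at 0.01. Of the X inactivation genes, Jpx and Ftx were tested and not called, and Xist did not pass the filter on low counts. The sex of the cultures was not tested. Of 9 tested genes known to vary in copy or structure between mouse strains 3 were higher and 1 lower (44.4% called), and the lower one was Apobec3 (-0.42). Without Ezh2b wild-type replicate 1, 2 were lower. Nnt, which carries a deletion in some C57BL/6J stocks, was at 38, 41.3 and 40.8 CPM against 44.6, 43.4 and 44.9 CPM.

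A few genes were detected in a single wild-type set. With at least 10 counts in every library of one set and 0 in every library of the other, 8 genes were detected in the Ezh2a wild types alone and 1 in the Ezh2b wild types alone. Lyz1, a lysozyme gene beside Lyz2, had 44, 38 and 36 counts in the Ezh2a wild types, which is 44.0-fold higher against the assumed floor of 3 counts over the Ezh2b set. Lyz1 and Lyz2 are near copies, so some of these reads may belong to Lyz2. Cyp4f18 had 34, 33 and 49 counts (43.3-fold against that floor), and Apoc2, Cdh5, Gbp8, Kcnc2, Nxph1 and Slc37a1 made up the rest. C2cd4a had 12, 10 and 32 counts in the Ezh2b wild types (16.1-fold against the same floor) and 0 in the Ezh2a wild types. Evi2, the lowest of the genes named by size at -7.51 (SE 1.24), had 4 counts in a single Ezh2b wild-type library and overlaps other genes, so its reads may be shared.

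Called genes were spread over all chromosomes. The share of tested genes called ran from 39.6% on chromosome 7 to 48.9% on chromosome 15 among the autosomes and X. On chromosome 6, which carries Ezh2 (47530139 to 47595341), it was 45.5%. Within 10 Mb of Ezh2, 55 of 123 genes were called (44.7%) and 10 of these by 2-fold or more. On the whole of chromosome 6, 10.1% were called at 2-fold or more. Only the 14491 tested genes with a position enter these shares. The 42.3% and 8.4% over all genes tested are therefore not a like background.

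The mutant libraries give a second look at the same pair of sets, since the Ezh2b mutants against the Ezh2a mutants share no library with the wild types. Between the mutants 6570 genes (41.8%) were called, 2984 higher (19%) and 3586 lower (22.8%) in the Ezh2b set, and 1183 (7.53%) reached 2-fold. Of the wild-type calls 3376 were called in the same direction between the mutants, which is 50.8% of the wild-type calls and 51.4% of the mutant calls, and 692 (10.4%) were called in the opposite direction. The difference between sets itself differed between mutants and wild types, by the interaction test, for 4168 genes (26.5%). The mutants also differ in their mutations, so the set and the mutation cannot be told apart there.

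Most of the strongly lower genes were called lower between the mutants too. For the 341 genes called at least 8-fold lower in the Ezh2b wild type, the median difference was -3.59 in the wild types and -1.61 in the mutants, and 298 of them were called lower in the mutants. These genes were chosen by their wild-type values, which by itself favours a smaller median in the mutants. The 20 macrophage markers were all called lower between the mutants, with a median of -1.70, and the interaction was called for all 20. Lyz2 differed by -1.54 between the mutants and Spi1 by -1.72. The summed marker share was 0.181% to 0.194% in the Ezh2a mutants and 0.0536% to 0.0578% in the Ezh2b mutants, so the Ezh2b wild types were the lowest of the 4 groups.

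**Figure D4:**
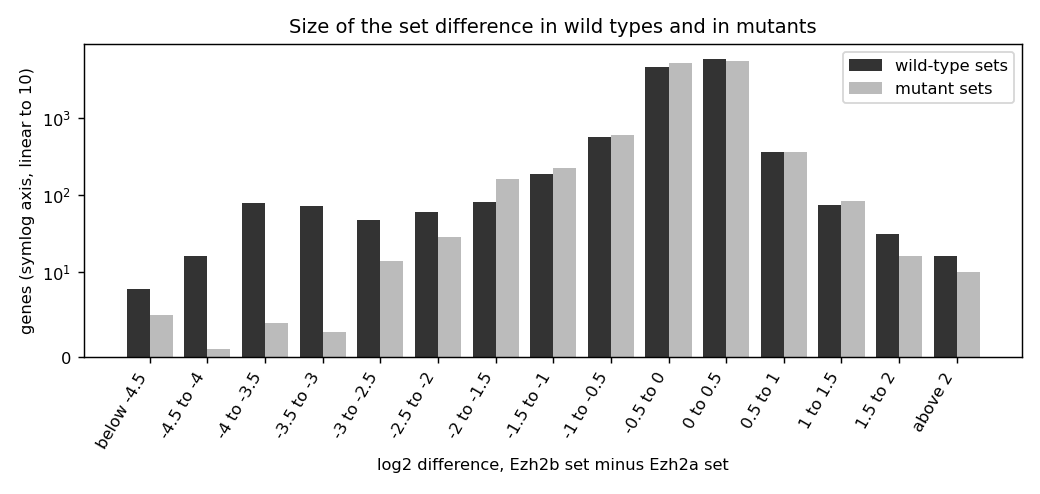
Number of genes by size of the log2 difference between the Ezh2b and the Ezh2a set, in wild types (dark) and in mutants (light), for the 12284 genes whose log2 CPM averaged 1 or more. The bars to the left differ, with 79 and 72 genes between -4 and -3 in the wild types and 4 and 3 in the mutants, and 81 wild-type against 165 mutant genes between -2 and -1.5.

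Other groups kept, widened, lost or turned their difference. The unfolded protein response genes had medians of 0.15 in the wild types and 0.15 in the mutants, with 12 of 21 higher in each. Of the smooth muscle and contractile genes 17 were higher between the mutants, with a median of 0.68, of the p53 targets 16 with a median of 0.37 and of the immediate early genes 16 with a median of 0.26. The G2 and mitosis genes, all higher in the Ezh2b wild type, had a median of -0.21 between the mutants, where 26 of 32 were called lower and none higher, and the interaction was called for all 32. The epithelial and mesothelial markers had a median of -0.48 between the mutants, with 6 lower and 3 higher, and the interaction was called for 9 of 12. Hox genes had a median of 0.20, with 13 higher and 4 lower. Groups 10 to 13 had medians of 0.51 in the wild types and 0.34 in the mutants, and groups 1 to 9 had medians of -0.73 and 0.00. Within groups 1 to 9 the HoxD genes were at -1.08 and -0.46. Des differed by 0.15 between the mutants and Mmp13 by -0.03 (adjusted p = 0.92). Penk was reversed at -0.65, Igfbp2 at -1.67 and Sema3d at -1.56. The muscle myosins Myh2 (2.99) and Myh1 (3.02), Stmn2 (2.12) and Wnt10b (2.17) were higher in the Ezh2b set among mutants as among wild types, and the interaction was not called for any of these 4.

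**Figure D5:**
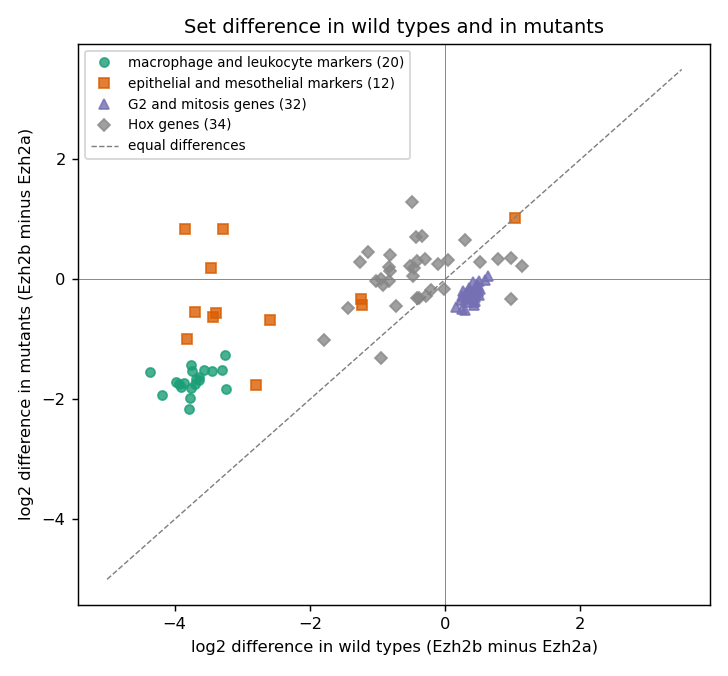
Log2 difference between the Ezh2b and the Ezh2a set in wild types (horizontal axis) and in mutants (vertical axis) for the tested genes of 4 lists. The dashed line marks equal differences. The macrophage markers form a tight group at medians of -3.76 and -1.70, the G2 and mitosis genes lie at 0.43 and -0.21, and the epithelial and mesothelial markers are spread more widely, with 3 of them higher and 6 lower between the mutants.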

How the data were processed

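The authors deposited raw counts per gene symbol for 12 RNA libraries of mouse embryonic fibroblasts, 3 per group. The build was GRCm38 and the tools were edgeR 4.2.1, StringTie 2.1.5, HISAT2 2.1.0 and fastp 0.21.0, per the submitters' processing notes. How reads were counted, on which annotation and with which strand setting is not given in the sources used here, so overlapping genes cannot be separated. Counts of 1 were rarer (3357 values) than counts of 2 (13267 values), as when both mates of a pair are counted, and halved counts were an alternative. Each column was matched to its sample by its description.

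Genes were filtered with filterByExpr, which left 15708, libraries were scaled by TMM (factors 0.977 to 1.03), and a model with 1 mean for each of the 4 groups was fitted with edgeR 4.0.16 in R 4.3.3 (quasi-likelihood test, 8 residual degrees of freedom, Benjamini-Hochberg over all genes tested). The mutant libraries thus enter the filter, the scaling and the estimate of spread but not the wild-type means. The tested genes held over 99.9% of the counts. The script was tested on simulated data. Levels are CPM after TMM scaling. Positions come from GENCODE M21 by gene symbol, which placed 14491 tested genes.

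The genes named are Ezh2, Ezh1 and Cdkn2a, the 15 largest called differences in each direction with a mean log2 CPM of 1 or more and no overlap of libraries (model and clone names excepted), and up to 6 called members of each of 44 gene lists, with members that did not pass only where they define a list. Some genes that this rule names are not reported here. Members and lists were chosen with earlier results of these data known. Lists are described by counts and medians and were not tested as sets. The alternatives were other scalings, DESeq2 1.42.0, no filter, halved counts, a replicate block, the 6 wild-type libraries alone and each library left out.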

Additional observations from a re-analysis of the deposited data

Results flagged for a closer look

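For 25 of the 30 genes named by size or always given, the set difference was not the same in mutants and wild types, by the interaction term of the same fit (adjusted p under 0.05 over all genes tested). Of the 30, 27 were named for the size of their wild-type difference, which is one side of the interaction, so neither that count nor a smaller mutant difference is a result about these genes. The values that follow are the mutant difference minus the wild-type difference on the log2 scale.

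The genes lower in the Ezh2b wild type all had a positive interaction, so that they differed less between the mutants. It was 4.61 for Mmp13, 3.46 for Serpinb6b, 3.27 for Il21r, 2.83 for Lyz2, 2.79 for Pgr, 2.61 for Zbtb8b, 2.52 for Fcgr2b, 2.44 for Brinp3, 2.39 for Stab1, 2.37 for P2ry12, 2.28 for Greb1, 2.26 for Adgre1 and 2.01 for Fcrls. Evi2 was not among them.

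Most of the genes higher in the Ezh2b wild type had a negative interaction. It was -7.84 for Col2a1, whose difference was 2.48 in the wild types and -5.35 in the mutants, and -3.08 for Penk, whose difference was 2.42 and -0.65. It was -2.27 for Esrrg, -2.23 for Grin2b, -1.58 for Plin4, -1.52 for Ctnnd2, -1.32 for Gata3, -1.12 for Car12, -0.82 for Nptx2 and -0.65 for Lrrc7. Ezh2 (1.07) and Cdkn2a (0.65) differed more between the mutants than between the wild types.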

How the results depend on the processing

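No count over all genes moved by more than 1.5 times in any alternative run, and no named gene changed sign. The count of genes called between the wild-type sets was 5834 to 6474 when a wild-type library was left out, 5975 with the 6 wild-type libraries alone, 6228 with DESeq2 and 6810 with no filter. Between 623 and 1001 of the 6642 calls were lost when a library was left out, and 1 changed sign, without Ezh2a wild-type replicate 3. Of 3117 values of named genes under the alternatives 88 lost their call, and none of these belonged to the genes named by size. Of 1144 counts of list members 44 moved, most of them counts of 4 or fewer. Those of interferon-stimulated genes were the widest, with 11 to 30 lower members, the 30 with no filter and 12 with DESeq2. Of 572 list medians 39 moved by more than the spread between replicates. With no filter that of the epithelial and mesothelial markers was -2.69 and that of the chemokines and cytokines -0.17. Replicate numbers did not pair the samples, since the correlations of same-numbered wild types were -0.137, 0.146 and 0.134 and only replicate 3 correlated best with its own number. With a replicate block 6615 genes were called. Depth limits the genes at few counts, such as Evi2, Dlx1 and Ccl8, whose differences are uncertain in size.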

Other observations

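Some genes named for the size of their difference belong to no list here. On the higher side, Nptx2, a secreted pentraxin of synapses, was at 3.73, 3.91 and 3.70 CPM against 18, 21.2 and 17.9 CPM. Lrrc7, which encodes densin of the postsynaptic density, was at 4.65, 4.81 and 4.89 CPM against 22.3, 22.6 and 21.6 CPM, and Grin2b, a glutamate receptor subunit gene, at 0.944, 0.710 and 1.21 CPM against 4.47, 5.27 and 4.68 CPM. Ctnnd2, which encodes a neural catenin, was at 1.86, 1.39 and 1.81 CPM against 6.97, 7.37 and 6.42 CPM. The rule that named these genes required that the sets not overlap.

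On the lower side, Brinp3, a gene also known from the nervous system, was at 7.71, 8.81 and 8.68 CPM in the Ezh2a wild types and at 0.257, 0.275 and 0.128 CPM in the Ezh2b wild types, and Zbtb8b, a zinc finger gene, at 6.43, 6.78 and 8.12 CPM against 0.0964, 0.138 and 0.238 CPM. Serpinb6b, a serine protease inhibitor gene, was at 17.5, 17.3 and 17.5 CPM against 1.03, 0.757 and 0.695 CPM. Myo5c, an unconventional myosin gene, was higher, with a log2 difference of 2.28.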
